A study of Mus musculus with 16 samples.

Results

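After a sham operation, hearts lacking PKM2 differed from their floxed controls in few genes by a test adjusted over the whole transcriptome, led by higher Abat and Snap91 and by lower Snora74a, a small nucleolar RNA. The comparison set 3 PKM2-/- sham hearts against 3 PKM2fl/fl sham hearts, 6 of the 16 RNA libraries of the study. Its members were all genes with a mean normalized read count of at least 10 over those 6 libraries, which were 20144 of the 55492 genes listed. The left ventricles came from male C57BL/6 mice of 8 to 12 weeks, 3 days after an open-chest operation in which the left anterior descending artery was not tied. PKM2fl/fl mice carried loxP sites around exon 10 of Pkm and an intact PKM2. PKM2-/- mice carried a germline deletion of that exon in every tissue, made with a CMV-Cre that was afterwards bred out, so that an effect in cardiomyocytes cannot be told apart from one of other cells or of development. The study also had 2 libraries of each genotype from unoperated hearts (baseline) and 3 of each genotype after myocardial infarction (MI), which were used here for comparison only. Each library was a separate heart.

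Pyruvate kinase makes pyruvate and ATP in the last step of glycolysis. The Pkm gene gives PKM1, with exon 9, which is constitutively active and prevails in adult muscle, or PKM2, with exon 10, an allosterically regulated form of growing cells that is also known to enter the nucleus. Deletion of exon 10 removes PKM2 and leaves PKM1 to be made. In the heart most ATP comes from fatty acids, while glycolysis also feeds side branches such as serine, lipid and pentose phosphate synthesis.

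The sham libraries held 20623769 to 71855101 reads assigned to genes, and the largest and the smallest belonged to different genotypes. A share of 15.95% to 28.27% of the reads of the PKM2fl/fl sham libraries, and of 30.06% to 49.6% of those of the PKM2-/- sham libraries, fell on ribosomal RNA genes or loci that share sequence with them. At this depth the counting error was small, with a 95% Wilson interval of 23.15% to 23.173% for the first PKM2fl/fl library. The means were 22.46% ± 6.19 (SD, n = 3) and 36.75% ± 11.13 (SD, n = 3), and the difference of 14.29 percentage points had an exact permutation p of 0.1 (two-sided), the smallest that 3 hearts against 3 allow. Without the third PKM2-/- heart the difference was 7.865 points. Most rRNA-related reads of the controls fell on the mitochondrial rRNAs mt-Rnr1 and mt-Rnr2. With these left out the share was 1.062%, 0.2326% and 2.085% in the PKM2fl/fl libraries. In the PKM2-/- libraries it was then 8.005%, 6.22% and 20.1%, a difference in means of 10.31 points (exact permutation p 0.1). Ribosomal RNA was depleted before sequencing, and with its share in each library as a covariate 4 genes passed the test given below, all lower without PKM2. The cardiomyocyte markers were at the levels of ventricular muscle in all 6 libraries, with Myh6, the main adult myosin heavy chain, at 307764 to 430857 normalized reads, and none of the 13 tested ventricular markers had an unadjusted p under 0.05. In bulk tissue, fewer cells of a type and less RNA per cell cannot be told apart.

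The deleted gene itself gave a higher signal. Pkm (chr9:59656576-59679372, plus strand, mm10, as are all positions given) had normalized read counts of 7779, 9444 and 8764 in the 3 PKM2fl/fl hearts and of 11710, 14242 and 13199 in the 3 PKM2-/- hearts, so the groups did not overlap. The log2 difference was 0.59 ± 0.12 (SE), with a limma Benjamini-Hochberg adjusted p of 0.143, which did not pass, and a DESeq2 adjusted p of 0.000245. Differences are given throughout as log2 of PKM2-/- minus PKM2fl/fl, with ± for the SE, and a single value in parentheses after a gene is that difference. These counts sum all isoforms of the gene, so they do not show whether exon 10 was lost, and the genotypes rest on the labels. At baseline the log2 difference in Pkm was 0.42, and after MI it was 0.21.

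Over the 20144 genes, 9 passed both a limma Benjamini-Hochberg adjusted p under 0.05 and a 2-fold change, 0.0447% of those tested. Higher calls were 4 (0.0199%) and lower calls 5 (0.0248%). An unadjusted p under 0.05 was reached by 1148 genes in the higher direction (5.7%) and 1030 in the lower (5.11%). The 3 hearts of each genotype did not overlap in 1681 genes higher without PKM2 (8.34%) and 1665 lower (8.27%). DESeq2 on the reads recovered from the table called 128 of 19212 genes (0.666%), with 65 higher, 63 lower and all 9 limma calls among them, and edgeR called 9 of 20628 (0.0436%), the same 9 genes. At a DESeq2 adjusted p under 0.05 alone, 341 genes were reached (1.77%), 183 higher (0.953%) and 158 lower (0.822%). Of the 128 genes, 8 were rRNA-related loci. No gene passed limma without the second PKM2-/- heart, and 24 did without the third. Scaled to all reads on genes, which moved the median of all genes by -0.324, 60 genes were higher and 182 lower. Just above the filter at 10 lay Adra2c, with a mean of 10.005 normalized reads over the 6 libraries, and just below it Gm37642, with 9.9904.

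**Figure D1:**
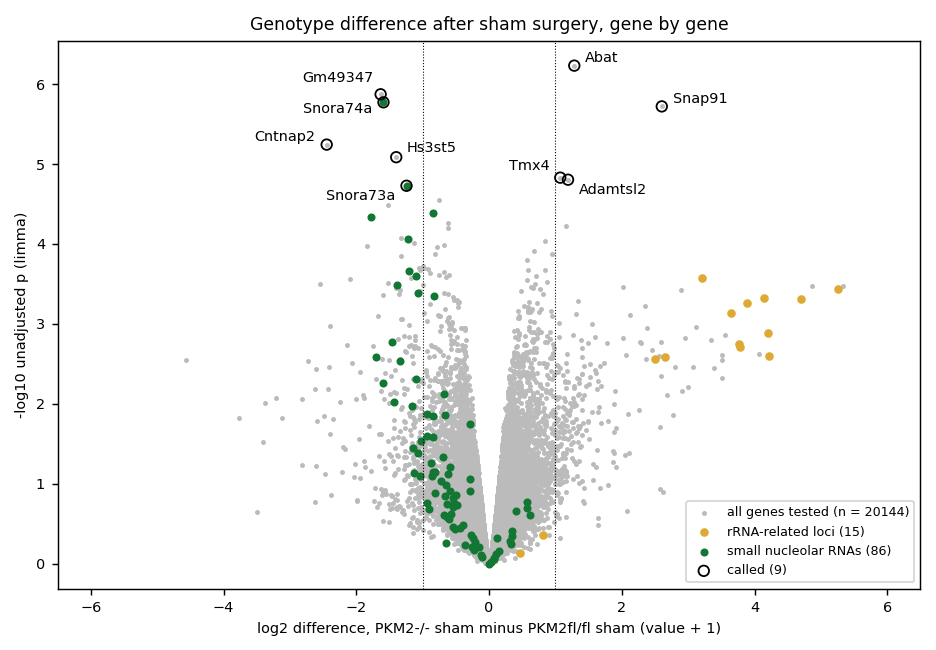
Each point is 1 of the 20144 genes tested, with the log2 difference between PKM2-/- and PKM2fl/fl sham hearts on the x axis and the −log10 unadjusted limma p on the y axis; dotted lines mark a 2-fold change, black rings the 9 genes called, green points the 86 small nucleolar RNAs and orange points the 15 rRNA-related loci. The small nucleolar RNAs lie mostly left of 0, and 12 of the 15 rRNA-related loci lie far to the right.

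Of the 4 genes that rose, Abat had the least spread. Abat (chr16:8513429-8621568), the mitochondrial transaminase that degrades the amino acid GABA, had 254, 259.7 and 229 normalized reads in PKM2fl/fl hearts and 599.6, 601 and 609.5 in PKM2-/- hearts. Every PKM2-/- heart was more than 2 times as high as every control, and the mean rose from 247 ± 16.3 to 603 ± 5.40 (SD, n = 3 each). The log2 difference was 1.28 ± 0.10 (limma adjusted p 0.00957). At baseline it was 0.36 and after MI -0.19, neither of which passed, and the 10 hearts of those groups had 113 to 308 normalized reads of Abat, under every PKM2-/- sham heart. The test of the sham difference against that of MI gave a difference of 1.47 and a limma adjusted p of 0.143, which did not pass, and by DESeq2 a difference of 1.49 with an adjusted p of 0.000104, which did.

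Snap91 (chr9:86765923-86880734, minus strand) encodes AP180, an adaptor that assembles clathrin coats and is best known at synapses. Its level was 25.3, 31.8 and 32.4 normalized reads in PKM2fl/fl hearts against 137, 208 and 223 in PKM2-/- hearts. All 3 PKM2-/- hearts were several times above all 3 controls, with a log2 difference of 2.60 ± 0.24 (limma adjusted p 0.00957). It was the only gene called both after sham surgery and at baseline, where the log2 difference was 2.85 (limma adjusted p 0.0187). After MI the difference was 0.56. Snap91 lies on the same chromosome as Pkm at a distance of 27.09 Mb.

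Tmx4, a thioredoxin-like membrane protein of the endoplasmic reticulum, and Adamtsl2, a secreted glycoprotein that binds the matrix and affects TGF-beta availability, were the other 2. Tmx4 had 776, 729.8 and 809.9 normalized reads in controls and 1503, 1982 and 1435 without PKM2, with the second PKM2-/- heart highest, a log2 difference of 1.07 ± 0.13 (limma adjusted p 0.0395). Adamtsl2 had 291, 251 and 326 in controls against 768, 643 and 578, a log2 difference of 1.19 ± 0.14 (limma adjusted p 0.0395). The groups did not overlap for either gene. In unoperated hearts the sign for Adamtsl2 was the opposite, at -1.10. The test of sham against baseline gave 2.29 for this gene with a limma adjusted p of 0.0866, which did not pass, and by DESeq2 2.34 with an adjusted p of 2.9e-05, which did.

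The 5 genes that fell included 3 entries for small nucleolar RNAs or their transcripts. Snora74a, a box H/ACA small nucleolar RNA inside the host gene Snhg4, had 949, 919.7 and 1210 normalized reads in PKM2fl/fl hearts and 296, 328 and 396 in PKM2-/- hearts, with a log2 difference of -1.59 ± 0.14 (limma adjusted p 0.00957). Its host was lower by less, at -0.35 (adjusted p 0.213). Gm49347, which matched no entry of the annotation used, had 493, 457 and 604 against 148, 166 and 183 and a log2 difference of -1.63 ± 0.14 (adjusted p 0.00957). In every library Snora74a carried 192.5% to 215.9% of the reads of Gm49347, a ratio that hardly moved, so the 2 entries may hold the same reads. Snora73a, also called U17a, is an H/ACA small nucleolar RNA needed for cleavage of the ribosomal precursor RNA. It lies inside Snhg3 (chr4:132352775-132352979, minus strand) and had 2322, 1706 and 2031 normalized reads in controls against 1039, 742 and 784, a log2 difference of -1.24 ± 0.15 (limma adjusted p 0.0419). Unoperated hearts of both genotypes had 1109 to 1215 normalized reads of Snora73a, below the PKM2fl/fl and above the PKM2-/- sham hearts, and infarcted hearts ran from 1131 to 4593.

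The sequences below show how near the U17-type RNAs are to each other, since Snora73b and Gm26448 were low beside Snora73a. They are the transcripts of the GENCODE annotation, matched by name and written 5′ to 3′ as DNA, and the capitals mark the ACA of the 3′ end that gives the class its name. Gm25776 is shown as the member of the class with the largest difference among those named, from inside Gtf2a1.
Snora73a: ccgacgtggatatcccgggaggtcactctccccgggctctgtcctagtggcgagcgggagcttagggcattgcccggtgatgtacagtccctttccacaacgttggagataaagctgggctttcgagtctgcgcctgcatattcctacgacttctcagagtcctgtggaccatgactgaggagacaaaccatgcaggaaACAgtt
Snora73b: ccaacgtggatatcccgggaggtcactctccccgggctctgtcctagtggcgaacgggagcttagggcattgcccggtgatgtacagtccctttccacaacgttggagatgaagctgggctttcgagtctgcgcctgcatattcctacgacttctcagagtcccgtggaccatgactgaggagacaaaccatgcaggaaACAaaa
Gm26448: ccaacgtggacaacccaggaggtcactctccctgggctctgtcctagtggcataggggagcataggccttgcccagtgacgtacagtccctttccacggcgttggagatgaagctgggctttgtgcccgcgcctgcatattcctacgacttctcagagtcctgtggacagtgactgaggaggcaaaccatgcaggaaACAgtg
Gm25776: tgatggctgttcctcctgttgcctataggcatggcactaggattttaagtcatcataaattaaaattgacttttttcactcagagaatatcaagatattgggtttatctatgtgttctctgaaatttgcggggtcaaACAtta
Snora73a and Snora73b were identical at 198 of 205 positions, and Gm26448, which lies in Rpsa (chr9:120129351-120129553), matched Snora73a at 180 of 205 aligned positions. An ACA within the last 6 bases was found in 46.5% of the 1558 annotated small nucleolar RNA transcripts. With sequences this close, a read of one U17 copy could have been assigned to another, and reads of Snora73a, Snora73b and their host could have been counted together.

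Snora73b had 3138, 2031 and 2306 normalized reads in PKM2fl/fl hearts and 1535, 991 and 1045 in PKM2-/- hearts, a log2 difference of -1.07 ± 0.20 (limma adjusted p 0.122). Gm26448 had 294, 270.0 and 306 against 141, 94.0 and 141, a log2 difference of -1.22 ± 0.18 (adjusted p 0.0953). Gm25776 (chr12:91573430-91573572) had 79.9, 64.7 and 83.8 against 19.3, 23.5 and 21.6, a log2 difference of -1.78 ± 0.24 (adjusted p 0.0711). For each of these 3 RNAs the groups did not overlap, and none passed the adjusted threshold. The protein-coding hosts of the last 2 were at -0.19 (Rpsa) and -0.10 (Gtf2a1), whereas the host Snhg3 was at -0.98. The counts of Snhg3 and the neighboring Rcc1 were within 102.3% to 110.1% of each other in every library, so that the 2 entries hold largely shared reads.

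The other 2 genes that fell were protein-coding genes with long introns. Cntnap2 (chr6:45060061-47301393), a neurexin-family membrane protein that clusters potassium channels on axons, had 184, 216 and 337 normalized reads in controls and 41.8, 35.3 and 52.9 without PKM2. Every control was more than 3 times as high as every PKM2-/- heart, with a log2 difference of -2.45 ± 0.26 (limma adjusted p 0.023). Rbpj-ps3, a pseudogene within Cntnap2, was at -1.84 (adjusted p 0.0953). Its reads were 32.85% to 61.22% of those of Cntnap2 over the sham libraries, and whether the 2 entries share reads was not tested. Hs3st5 (chr10:36506590-36834397), a sulfotransferase that modifies heparan sulfate, had 1923, 2016 and 2543 in controls against 846, 961 and 660.2, a log2 difference of -1.40 ± 0.15 (limma adjusted p 0.0276). After MI the same direction was seen, at -2.16 for Cntnap2 and -1.86 for Hs3st5, without passing the adjusted test there (adjusted p 0.226 and 0.277). At baseline the values were -0.84 and 0.17.

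**Figure D2:**
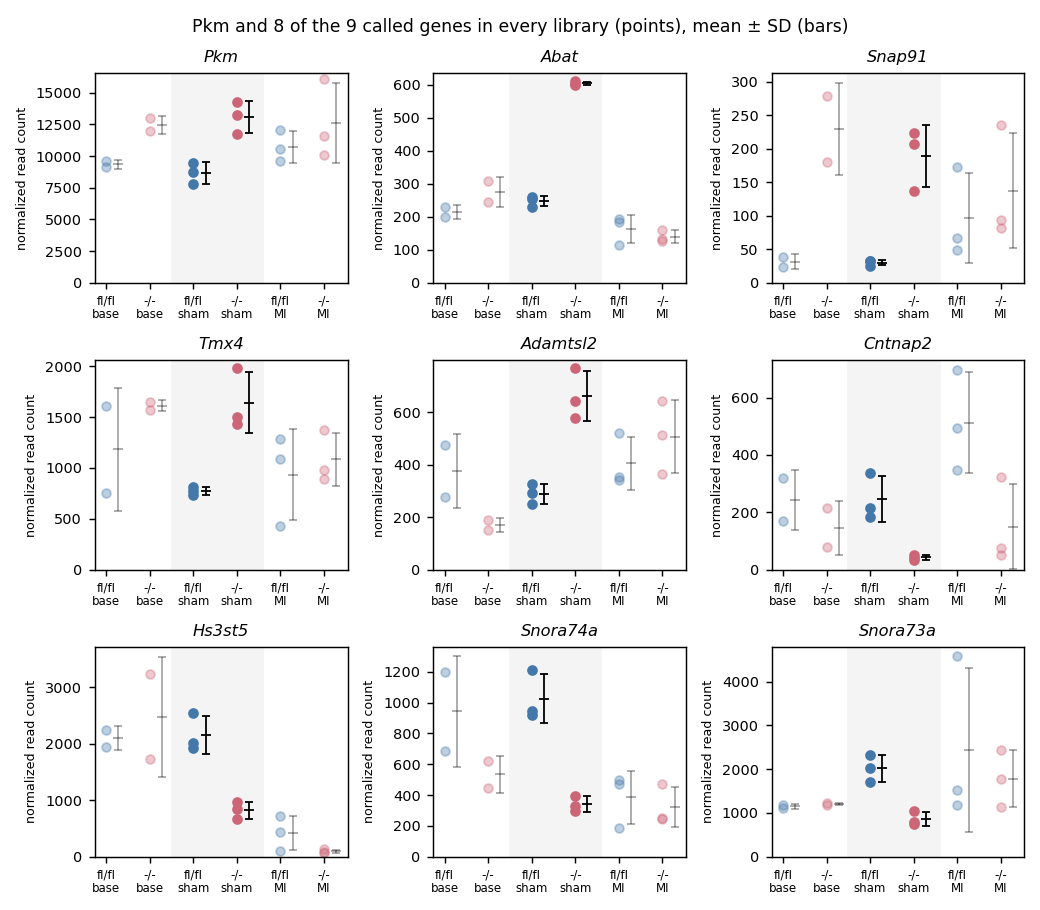
Panels for Pkm and for 8 of the 9 called genes (all but Gm49347) give the normalized read count on the y axis, from 0, for every library of the 6 groups along the x axis, PKM2fl/fl in blue and PKM2-/- in red, with the mean ± SD beside the points and the sham groups shaded. The sham groups do not overlap in any panel, and the 3 PKM2-/- sham values of Abat, from 599.6 to 609.5, lie above all other libraries.

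Bdh1, Mthfd2 and Plaur did not pass, although each was at least 2-fold higher without PKM2 and its groups did not overlap. Bdh1, the mitochondrial enzyme that interconverts the ketone bodies acetoacetate and beta-hydroxybutyrate, had 1441, 1254 and 883 normalized reads in controls and 2452, 2553 and 2851 in PKM2-/- hearts, with no overlap, a log2 difference of 1.16 ± 0.17 and a limma adjusted p of 0.0802. Mthfd2, a mitochondrial enzyme of one-carbon metabolism, had 82.2, 84.2 and 67.2 against 158, 163 and 298, with the third PKM2-/- heart highest (log2 difference 1.34 ± 0.25, adjusted p 0.133). Plaur, the urokinase receptor, had 62.9, 76 and 59.8 against 141, 248 and 126, with the second PKM2-/- heart highest (log2 difference 1.31 ± 0.26, adjusted p 0.15). The direction for Bdh1 was the same at baseline (0.74) and after MI (0.40).

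Among the genes with lower values, Slc38a4, a neutral amino acid transporter, had 277, 239 and 232 normalized reads in controls and 113, 136 and 94.9 without PKM2 (log2 difference -1.13 ± 0.17, adjusted p 0.0953). Rbfox1, a splicing factor of muscle and neurons, had 4155, 4326 and 5242 against 2690, 2914 and 2215 (log2 difference -0.81 ± 0.13, adjusted p 0.105). It was the only 1 of 12 tested genes of a list of Pkm splicing regulators with an unadjusted p under 0.05. This was 8.33% in the lower direction, against 5.11% of all genes. The list had a median log2 difference of -0.0666 against -0.00425 over all genes. Gm11966, annotated as a pseudogene, was at -1.53 ± 0.20 (adjusted p 0.0591). None of the 3 overlapped between the groups.

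Among the genes with the smallest p in the higher direction, 5 followed the rRNA-related loci from heart to heart: Gm48099, D130009I18Rik, Kcnip1, Kpna1 and Gnb1l. Each was lowest in the second PKM2fl/fl heart, which had the smallest share of rRNA-related reads, and highest in the third PKM2-/- heart, which had the largest. Kpna1, a nuclear import receptor, had 10324, 3323 and 14390 normalized reads in controls and 45889, 41247 and 105081 without PKM2, a log2 difference of 2.88 ± 0.52 that was 1.57 with the rRNA share as a covariate. D130009I18Rik went from 5.34 to 2.78 in the same way. Kpna1 overlaps Gm15564, which is on the list of rRNA-related loci. In recovered reads, Kpna1 had 17572, 3237 and 29353 in controls and 28544, 31583 and 97408 without PKM2. Gm15564 had 12484, 726 and 24248 against 27152, 29264 and 94782, so the 2 entries may hold largely the same reads. None of the 5 passed the adjusted test. The rRNA-related loci themselves had higher values in 12 of 15 tested members at an unadjusted p under 0.05 and in none lower, with a median log2 difference of 3.77. CT010467.1, the locus of nuclear rRNA with the most reads, had 218822, 32095 and 489424 normalized reads in controls and 1824249, 1507008 and 8062858 without PKM2 (log2 difference 4.22 ± 1.02, limma adjusted p 0.199). Values ran over more than 10-fold within the PKM2fl/fl hearts alone, and none of these loci was called. Others on the list were Lars2 (4.20) and Mir6236 (5.26). Gm20594, at 3.74 at baseline, was at 0.058 after sham surgery (unadjusted limma p 0.888). For Gm20594 the test of sham against baseline gave -3.68 with a limma adjusted p of 0.0703, which did not pass. By DESeq2 it gave -3.68 with an adjusted p of 4.16e-08, which did. The mitochondrial rRNAs mt-Rnr1 (0.82) and mt-Rnr2 (0.47) did not have an unadjusted p under 0.05. Their values were -0.14 and -0.30 with the rRNA share as a covariate. That share holds their own reads, so the sign change cannot be read as a result about these genes.

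Small nucleolar RNAs as a class were lower in PKM2-/- sham hearts. These RNAs guide the chemical modification and cleavage of ribosomal RNA and are cut from introns of host genes. Of the 1419 listed, 86 were tested. An unadjusted p under 0.05 was reached by 28 in the lower direction (32.6%, against 5.11% of all genes) and by 0 in the higher, and 71 of 86 had a lower mean. The median log2 difference was -0.624, against -0.00425 over all genes tested. In DESeq2, 13 were lower and 0 higher at an adjusted p under 0.05. The class was picked because Snora73a and Snora74a were called, so its count is a description. Summed over the class, the PKM2fl/fl hearts had 26864, 22864 and 24658 normalized reads, and the PKM2-/- hearts 16991, 14422 and 15556. The summed levels did not overlap. With any 1 heart left out, 21 to 33 of the RNAs were lower at an unadjusted p under 0.05 and 0 higher. At baseline the median of the class had the opposite sign (0.327), and after MI it was -0.48.

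Short transcripts of other classes were also shifted toward lower values, by less. Of 161 other small RNAs, 22 were lower and 3 higher at an unadjusted p under 0.05, with a median of -0.193. Over all genes, 5.11% were lower and 5.7% higher at that p. The class of other small RNAs also held Rnu3a, Rnu3b1 and Rnu3b3, copies of the U3 small nucleolar RNA, and the mitochondrial rRNAs. Among protein-coding genes whose longest transcript was under 500 bases, 7 of 44 were lower and 3 higher, with a median of -0.195. From 500 to under 1000 bases, 31 of 264 were lower and 8 higher, with a median of -0.0943. At 4000 bases or more, 399 of 7997 were lower and 574 higher, with a median of 0.0123. The differences thus ran with transcript length as well as with class, and the part of transcript length in the small nucleolar RNA values was not tested. Lengths came from 97.6% of the 14361 coding genes tested.

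**Figure D3:**
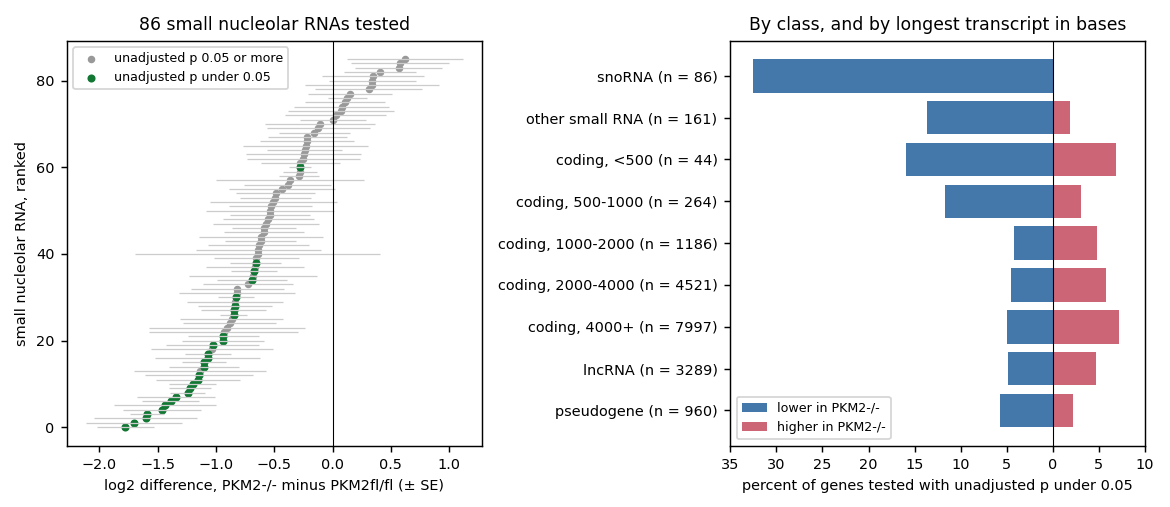
At left, the log2 difference between PKM2-/- and PKM2fl/fl sham hearts (x axis, point with a bar of 1 SE each way) is given for each of the 86 tested small nucleolar RNAs, ranked along the y axis, with those of an unadjusted p under 0.05 in green. At right, bars from 0 give the percent of genes tested with an unadjusted p under 0.05, lower to the left in blue and higher to the right in red, by RNA class and, for protein-coding genes, by the longest transcript in bases. The small nucleolar RNAs reach 32.6% lower and 0% higher, and protein-coding genes of 4000 bases or more 4.99% lower and 7.18% higher.

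Other structural RNAs of ribosome production and RNA processing showed the same direction, with 5 of 14 tested members lower at an unadjusted p under 0.05, 0 higher, and a median of -0.688. The 5 were 35.7%, against 5.11% of all genes. Copies of U3 among them were also counted with the other small RNAs above, so these counts are not separate. The U3 small nucleolar RNA directs the first cuts of the ribosomal precursor, and 3 of its copies were low. Rnu3b1 had 484, 333 and 539 normalized reads in PKM2fl/fl hearts and 158, 166 and 210.4 in PKM2-/- hearts (log2 difference -1.32 ± 0.20, limma adjusted p 0.0953). Rnu3a had 281, 165 and 275 against 82, 115 and 72.3 (log2 difference -1.40 ± 0.25, adjusted p 0.12), and Rnu3b3 was at -1.32. The U3 copies are nearly alike and reads could be split among them, and the overlapping gene Tex14, which holds Rnu3b1 and Rnu3b3, was at -1.18. Rmrp, the RNA of an endonuclease that also cleaves ribosomal precursor RNA, had 33976, 32627 and 30882 against 21708, 15370 and 25594 (log2 difference -0.67 ± 0.18, adjusted p 0.232). None of these passed the adjusted threshold.

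Genes for cytosolic ribosomal proteins were lower on average in all 78 members, yet by little, with a median log2 difference of -0.157. An unadjusted p under 0.05 was reached by 9 of 78 in the lower direction (11.5%, against 5.11% of all genes) and 0 in the higher. Rps29, among the shortest of them, had 3957, 4568 and 3563 normalized reads in controls and 2907, 2406 and 3551 without PKM2 (log2 difference -0.46 ± 0.15, adjusted p 0.318), and the third PKM2-/- heart lay just under the lowest control. The count of 9 was 2, 0 and 26 without the first, the second and the third PKM2fl/fl heart in turn, and 1 and 33 without the second and the third PKM2-/- heart.

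Immediate early genes encode transcription factors that are induced within minutes by growth factors, stretch, cytokines or handling. Of 21 tested members of the AP-1 and immediate early list, 9 were higher and 1 lower at an unadjusted p under 0.05 (42.9% and 4.76%, against 5.7% and 5.11% of all genes), with a median log2 difference of 0.473 and 0 calls. With any 1 heart left out, 9 to 12 were higher and 0 or 1 lower. Scaled to total reads, 6 were higher and 1 lower, and the median was 0.151, against -0.324 over all genes. DESeq2 gave an adjusted p under 0.05 for 7, all higher. At baseline the median was -0.183.

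Nr4a1, an orphan nuclear receptor, had 789.6, 272 and 422 normalized reads in controls and 2415, 2954 and 1068 without PKM2 (log2 difference 2.13 ± 0.43, limma adjusted p 0.15). Fosl2, an AP-1 subunit, had 1710, 1234 and 1003 against 2778, 4771 and 2195 (log2 difference 1.26 ± 0.28, adjusted p 0.179). Fos, another, had 118, 48.2 and 40.7 against 260.4, 247 and 119.7 (log2 difference 1.67 ± 0.42, adjusted p 0.209). In these 3 genes every PKM2-/- heart was above every control, although the third PKM2-/- heart was the lowest of its group and the first PKM2fl/fl heart the highest of its own. Fosb (2.68), Egr3 (1.49), Myc (0.92), Junb (0.92), Klf4 (0.54) and Zfp36 (0.32) were also higher at an unadjusted p under 0.05. Zfp36 was at -0.002036 when libraries were scaled to all their reads. Jun was the exception in the lower direction, at -0.31 ± 0.13, and Egr1, at 0.14, did not reach that p.

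Heat shock proteins, the chaperones that refold damaged proteins, were higher in 6 of 18 tested members and lower in 0 at an unadjusted p under 0.05. The 6 were 33.3%, against 5.7% of all genes, and the median was 0.318. Hsph1, which releases nucleotide from HSP70, had 845, 1251 and 698 normalized reads in controls and 1567, 1532 and 2098 without PKM2 (log2 difference 0.92 ± 0.21, limma adjusted p 0.181), with no overlap. Cryab, a small chaperone of the sarcomere, had 10233, 11474 and 10469 against 11414, 14930 and 21616, with the first PKM2-/- heart inside the control range (log2 difference 0.53 ± 0.20, adjusted p 0.387). Hsp90ab1 was at 0.33. The count of 6 was 1 without the third PKM2fl/fl heart or without the third PKM2-/- heart, and 2 without the first PKM2fl/fl heart. The list median was -0.00493, with 3 higher, when libraries were scaled to all their reads, against -0.324 over all genes. With the rRNA share as a covariate 1 was higher and 1 lower.

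The promoter of Hsph1, described above, is shown since the heat shock factor is known to bind inverted repeats of GAA. The stretch runs from 250 bases before to 50 bases after an annotated start of transcription (RefSeq, GRCm38.p6, chr5:149636287-149636586, minus strand), with a match to GAANNTTC in capitals.
Hsph1: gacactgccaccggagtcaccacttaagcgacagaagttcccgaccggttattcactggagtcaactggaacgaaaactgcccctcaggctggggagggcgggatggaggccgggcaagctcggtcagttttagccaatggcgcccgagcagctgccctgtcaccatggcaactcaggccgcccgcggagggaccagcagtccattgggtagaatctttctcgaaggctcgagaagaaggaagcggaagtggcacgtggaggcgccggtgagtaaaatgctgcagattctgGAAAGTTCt
GAANNTTC, which reads the same on both strands, was found in such promoters of 10 of the 14 heat shock list genes with a promoter in the table, and in 9.04% of the 27025 genes that have one. A match is a run of letters only, not a bound site.

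In the circadian clock list 11 of 19 members had a lower mean and 8 a higher mean without PKM2. The core clock drives Dbp, Tef and Hlf, the transcription factors of its PAR-bZIP arm, together with Per3 and the nuclear receptors Nr1d1 and Nr1d2. Of 19 tested members of the list, 6 were lower and 0 higher at an unadjusted p under 0.05 (31.6%, against 5.11% of all genes), with a median of -0.176 and no call. With the rRNA share as a covariate 7 were lower and 2 higher, with a median of -0.0749. Per3 had 1174, 1121 and 1688 normalized reads in controls and 793, 729 and 967 without PKM2 (log2 difference -0.66 ± 0.17, limma adjusted p 0.209). Dbp had 971, 882 and 1693 against 508, 671 and 763 (log2 difference -0.83 ± 0.24, adjusted p 0.265). The groups did not overlap for either, and the third PKM2fl/fl heart was the highest for both. Tef (-0.35), Hlf (-0.44), Nr1d1 (-0.47) and Nr1d2 (-0.41) were the other 4. The count of 6 was 2 without the third PKM2fl/fl heart and 3 without the first PKM2-/- heart. At baseline the median of the list was 0.139. Times of tissue collection for the single hearts were not used here.

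Cytokine, chemokine and acute inflammation genes were higher in 8 of 26 tested members and lower in 0 at an unadjusted p under 0.05. The 8 were 30.8%, against 5.7% of all genes, and the median was 0.431. Scaled to total reads, 6 were higher and 3 lower, and the median was 0.0811, against -0.324 over all genes. Icam1, the endothelial adhesion molecule for leukocytes, had 583, 440.4 and 363 normalized reads in controls and 804, 1232 and 679.6 without PKM2 (log2 difference 0.95 ± 0.23, limma adjusted p 0.201). Socs3, the feedback inhibitor of cytokine receptors, had 258, 233 and 89.7 against 338, 333 and 599 (log2 difference 1.21 ± 0.39, adjusted p 0.313). The third PKM2fl/fl heart was the lowest for both genes. That heart was also apart in neutrophil markers, which summed to 1718, 1758 and 324.5 normalized reads in the PKM2fl/fl hearts and to 1497, 1467 and 1656 in the PKM2-/- hearts. None of the 8 tested neutrophil markers had an unadjusted p under 0.05, and the part of neutrophils in the cytokine values was not tested. Without the third PKM2fl/fl heart the count of 8 cytokine genes was 2, while it was 12 without the second PKM2fl/fl heart, and 5 and 4 without the second and the third PKM2-/- heart. Interferon-stimulated genes (32 tested) and acute phase genes (14 tested) had 0 members at that p in either direction.

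Targets of HIF-1, the transcription factor of low oxygen for which PKM2 is known as a coactivator, were higher in 6 of 25 tested members and lower in 0, with a median of 0.162. At an unadjusted p under 0.05 this was 24%, against 5.7% of all genes. Egln3, a prolyl hydroxylase that marks HIF for decay, had 979, 1031 and 1285 normalized reads in controls and 1730, 1861 and 2359 without PKM2, with no overlap (log2 difference 0.85 ± 0.14, limma adjusted p 0.12). Ddit4, an inhibitor of mTORC1, had 1467, 769.9 and 794 against 2061, 2767 and 1302, with the third PKM2-/- heart below the highest control (log2 difference 1.02 ± 0.30, adjusted p 0.275). Hk1, the first enzyme of glycolysis, was at 0.28, and at -0.04441 when libraries were scaled to all their reads. Under that scaling the list median was -0.16, against -0.324 over all genes, with 1 higher and 1 lower. Without the third PKM2fl/fl heart 3 of the 25 were higher.

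Collagens and matrix genes were higher in 7 of 36 tested members and lower in 1, with a median of 0.241. At an unadjusted p under 0.05 these were 19.4% and 2.78%, against 5.7% and 5.11% of all genes. Scaled to total reads on genes the counts were 0 higher and 1 lower and the median -0.0813, against -0.324 over all genes. Eln (elastin, 0.38), Loxl2 (a collagen crosslinking enzyme, 0.40) and Col6a2 (0.34) were among the 7, and each differed by under 0.5 on the log2 scale. The count of 7 was 3, 15 and 2 without the first, the second and the third PKM2fl/fl heart in turn, and 2 without the first PKM2-/- heart. Cdkn1a, the cell cycle inhibitor p21, had 1157, 787 and 510.3 normalized reads in controls and 1535, 2356 and 1299 without PKM2 (log2 difference 1.11 ± 0.29, limma adjusted p 0.224). Cenpf, a kinetochore protein of dividing cells, had 493, 277 and 277 against 125, 84.9 and 147 with no overlap (log2 difference -1.52 ± 0.27, adjusted p 0.12). These were the only 2 of the 30 tested cell cycle genes with an unadjusted p under 0.05.

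Markers of mesothelium, the outer cell layer of the heart, had the lowest median of the 51 lists other than the rRNA-related loci. Of 9 tested members, 7 were lower and 1 higher at an unadjusted p under 0.05, with a median log2 difference of -2.15. These were 77.8% and 11.1%, against 5.11% and 5.7% of all genes. Muc16, a mucin of the mesothelial surface, had 122, 251 and 199 normalized reads in controls and 14.5, 37.9 and 70.1 without PKM2 (log2 difference -2.39 ± 0.50, limma adjusted p 0.167). Msln (mesothelin) had 32.9, 70.8 and 73.5 against 0, 13.1 and 15.1, and Lrrn4 had 21.1, 37 and 33.8 against 3.22, 5.22 and 11.9. For these 3 genes all controls were above all PKM2-/- hearts, and Msln and the keratin Krt8 were at 0 in the first PKM2-/- heart. Wt1, which other epicardial and endothelial cells also express, was in the opposite direction (175, 231 and 194 against 305, 667 and 216, 0.83 ± 0.35). With Wt1 included, the summed level of the list was 441.8 to 744.2 in controls and 340.8 to 750.9 in PKM2-/- hearts, so the sums overlapped. The markers are expressed by a thin surface layer, and how much of it each tissue piece held is not given in the sources used here.

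Pericyte and smooth muscle markers were higher in 6 of 11 tested members and lower in 0, with a median of 0.225. Counts here are at an unadjusted p under 0.05, which 5.7% of all genes reached in the higher direction and 5.11% in the lower. Myh11, the smooth muscle myosin, had 1212, 1080 and 1429 normalized reads in controls and 1751, 1566 and 1980 without PKM2 (log2 difference 0.51 ± 0.13, limma adjusted p 0.201). Cnn1 (0.71) and Notch3 (0.37) were also among the 6. When libraries were scaled to all their reads, the list median was -0.0974, with 0 higher and 1 lower. The median of all genes was -0.324 under that scaling. Endothelial markers were higher in 4 of 15 tested members, Pecam1 at 0.30 among them, and lower in 1, and under that scaling Pecam1 was at -0.01787 and the list median at -0.163, with 0 higher. Without the second PKM2fl/fl or the first PKM2-/- heart 2 endothelial markers were higher. Macrophage markers were higher in 3 of 18 and lower in 0, with 7 higher without the second PKM2fl/fl and 9 without the second PKM2-/- heart, and 0 higher and a median of -0.0759 under that scaling. Lyve1, a hyaluronan receptor of resident macrophages and lymphatic vessels, had 738, 761 and 579 against 1064, 969 and 1285 with no overlap (log2 difference 0.68 ± 0.14, adjusted p 0.162). Fibroblast markers had 2 of 12 higher, with Mfap5 at 0.51. Adipocyte markers had 3 of 7 higher, with Cfd (adipsin) at 1.59. Adipoq had 0 to 12 reads and Plin1 7 to 14 reads per sham library, and Lep and the brown fat gene Ucp1 were at 0 in all 6. No cell type marker was called.

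**Figure D4:**
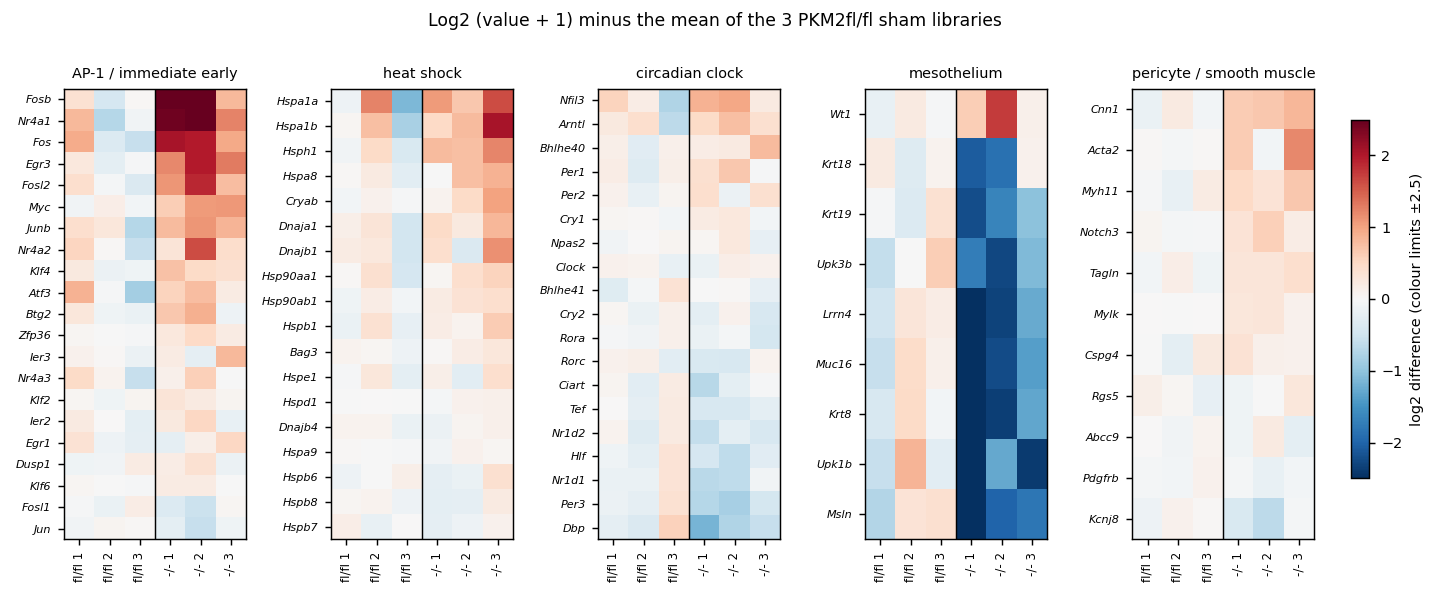
Heat maps give, for each tested member (rows) of 5 lists in each of the 6 sham hearts (columns, fl/fl for PKM2fl/fl and -/- for PKM2-/-), the log2 of the normalized read count plus 1 minus the mean of the 3 PKM2fl/fl hearts, red for higher and blue for lower, with colors cut at ±2.5. Nr4a1 is higher in every PKM2-/- heart by a mean of 2.13, Per3 and Dbp are lower in all 3, and all mesothelial markers but Wt1 are blue in at least 2 of the 3 PKM2-/- hearts.

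**Figure D5:**
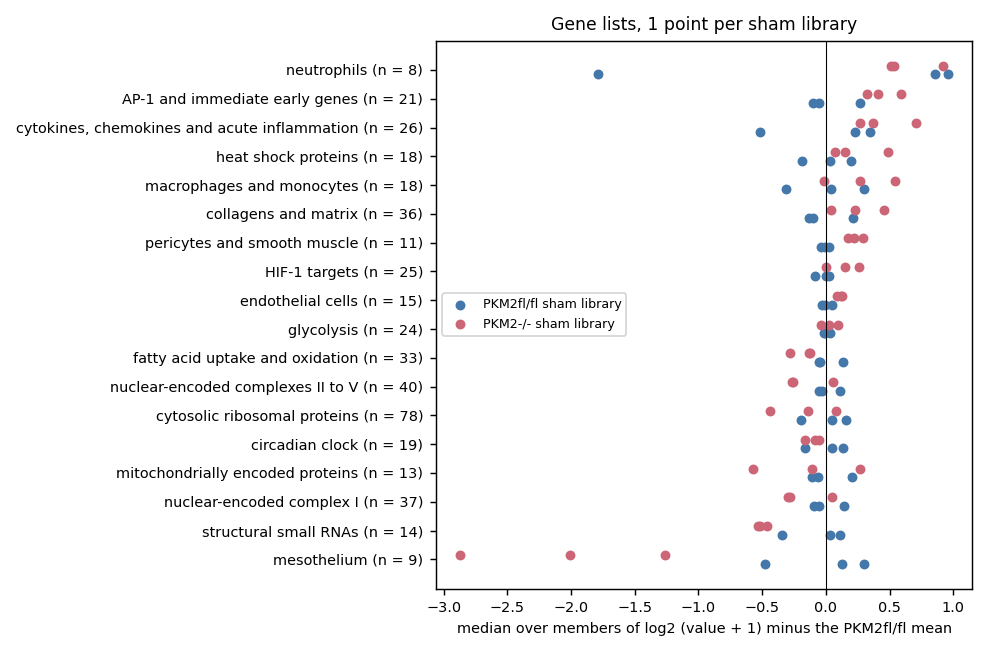
Each point is 1 sham heart, and the x axis gives, for the gene lists named at the left, the median over the tested members of log2 of the normalized read count plus 1 minus the PKM2fl/fl mean, with blue points for PKM2fl/fl and red points for PKM2-/- hearts. The mesothelial list lies lowest in the PKM2-/- hearts (-2.87, -2.01 and -1.26), and the neutrophil list has a single PKM2fl/fl heart at -1.79.

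The genes of glycolysis, in which PKM2 acts, differed little. Of 24 tested members, 3 were higher (Pkm, Pfkp and Hk1) and 0 lower at an unadjusted p under 0.05, with a median of 0.0737. Over all genes, 5.7% were higher and 5.11% lower at that p. Scaled to total reads, 0 were higher and 1 lower, with a median of -0.249, against -0.324 over all genes. Pfkp, the platelet form of phosphofructokinase, had 1383, 1225 and 1380 normalized reads in controls and 1635, 1696 and 2050 without PKM2, with no overlap (log2 difference 0.43 ± 0.11, limma adjusted p 0.209). Of 11 glucose transport genes 2 were higher and 1 lower. The higher were Slc2a1 (GLUT1) and Slc2a3 (GLUT3), each with overlap between the groups, and the lower was Tbc1d4, a regulator of GLUT4 traffic (-0.36). Pyruvate dehydrogenase and its regulators had 0 of 14 members in either direction. The pentose phosphate list had 2 of 10 lower and 0 higher. Of 13 genes of serine and one-carbon metabolism, Mthfd2, given above, was the only 1 at that p.

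Fatty acid oxidation genes had small negative differences in most members. Of 33 tested, 6 were lower and 1 higher at an unadjusted p under 0.05 (18.2% and 3.03%, against 5.11% and 5.7% of all genes), 27 had a lower mean, and the median was -0.152. The 6 were 2 without the second PKM2fl/fl or the first PKM2-/- heart, and with the rRNA share as a covariate 2 were lower and 2 higher. Decr1, which clears double bonds for beta-oxidation, had 5978, 6285 and 5296 normalized reads in controls and 4173, 4641 and 4563 without PKM2, with no overlap (log2 difference -0.39 ± 0.096, limma adjusted p 0.201). Ucp2, an inner membrane carrier of mitochondria, was the member with higher values, 1095, 1279 and 1016 against 1595, 1963 and 1449 (log2 difference 0.56 ± 0.13, adjusted p 0.194).

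Lipid synthesis and storage had 2 of 26 higher and 2 lower, with a median near 0 (-0.00136). At an unadjusted p under 0.05 this was 7.69% in each direction, against 5.7% and 5.11% of all genes. Scd1, the desaturase that makes monounsaturated fatty acids, had 344, 315 and 361 normalized reads in controls and 463, 532 and 608 without PKM2, with no overlap (log2 difference 0.64 ± 0.13, limma adjusted p 0.146). Gpd1, which links glycolysis to glycerolipids, had 891, 921 and 928 against 674, 777 and 681 (log2 difference -0.37 ± 0.093, adjusted p 0.21). In the cholesterol list, 2 of 21 were higher and 1, Lss, lanosterol synthase, was lower (-0.78).

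Subunits of the respiratory chain were lower on average. Nuclear-encoded complex I genes had 34 of 37 lower means, with 7 lower and 0 higher at an unadjusted p under 0.05 and a median of -0.205. The 7 were 18.9%, against 5.11% of all genes. Ndufa2, a small subunit of complex I, had 3477, 3669 and 3039 normalized reads in controls and 2455, 2172 and 2656 without PKM2, with no overlap (log2 difference -0.48 ± 0.11, limma adjusted p 0.181). The third PKM2-/- heart stood apart from the other 2 in this list, with a median deviation from the control mean of 0.047 against -0.299 and -0.28. Without it 22 of the 37 genes were lower at that p, and without the second PKM2fl/fl or the first PKM2-/- heart 2 were. Complexes II to V had 5 of 40 lower, 0 higher and a median of -0.155, and the 5 were 21 without that heart and 2 without the second PKM2fl/fl, the first PKM2-/- or the second PKM2-/- heart. Cox7c had 5428, 6592 and 5330 against 4024, 3988 and 4667 (log2 difference -0.45 ± 0.11, adjusted p 0.203).

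Of the 13 proteins encoded in mitochondrial DNA, 3 were lower at an unadjusted p under 0.05, with a median of -0.187. The 3 were 23.1%, against 5.11% of all genes. Without the third PKM2fl/fl heart 1 was lower, and without the third PKM2-/- heart 5 were. Without the first PKM2-/- heart the median was -0.0193, with 2 lower and 1 higher. With the rRNA share as a covariate it was -0.564, with 5 lower, and scaled to total reads -0.51, with 5 lower, against -0.324 over all genes. mt-Co3, a core subunit of cytochrome oxidase, had 17805, 8466 and 15657 normalized reads in controls and 1418, 3655 and 8739 without PKM2 (log2 difference -1.90 ± 0.56, limma adjusted p 0.265). The lowest control lay just under the highest PKM2-/- heart. mt-Co2 (-2.35) and mt-Atp6 (-1.28) were the other 2, and values of mt-Co2 ran from 7391 to 40847 within the PKM2fl/fl hearts alone. As a share of all reads, the 13 genes took 11.7%, 12.66% and 12.1% in controls and 8.103%, 10.01% and 8.836% without PKM2, an exact permutation p of 0.1 (two-sided), again the smallest possible. The sums of their normalized reads overlapped, at 3798977, 3663610 and 4262505 in controls and 2686695, 3641436 and 4747002 without PKM2. The rRNA share, whose reads count in all reads, was higher in the same PKM2-/- libraries. Its part in this difference of shares was not tested.

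The medians of the muscle lists were small, while single members differed more. The sarcomere list had 3 of 22 lower (Csrp3, Myom2 and Myh7) and 0 higher, with a median of -0.126. Sarcoplasmic reticulum calcium handling and CaMKII had 2 of 32 in each direction, with a median of 0.00247. These counts are at an unadjusted p under 0.05, which 5.11% of all genes reached in the lower direction and 5.7% in the higher. Myh7, also on the cardiac stress list, had 69119, 11071 and 71245 recovered reads in controls and 7440, 11419 and 10745 without PKM2. These reads are not scaled for depth, and the second control was far below the other controls. Strit1, a micropeptide that stimulates the calcium pump SERCA, was at -0.73. The cardiac stress list had 2 of 18 higher and 3 lower. Nmrk2, a kinase of the NAD salvage route that rises in failing hearts, had 857, 556 and 785 normalized reads in controls and 1129, 995 and 1114 without PKM2, with no overlap (log2 difference 0.58 ± 0.15, limma adjusted p 0.225). Hopx, a cofactor of serum response factor, had 4161, 4016 and 4004 against 3427, 3145 and 3008 (log2 difference -0.35 ± 0.084, adjusted p 0.199). Among antioxidant and NRF2 genes, 3 of 33 were higher and 0 lower, with Nnt, the transhydrogenase that makes mitochondrial NADPH, at 0.63. Apart from the rRNA-related loci, 11 of 51 lists had no member with an unadjusted p under 0.05, and no list held a called gene.

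Around Pkm itself, 34 of 68 genes listed within 2 Mb were tested and 0 were called. An unadjusted p under 0.05 was reached by 1 in the higher direction (Tle3, 0.44) and 2 in the lower (Neo1, -0.25, and Arid3b, -0.35). At that p, 5.7% of all genes tested were higher and 5.11% lower. The median of the neighbors was 0.044, near that of all genes.

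The genotype comparison after sham surgery was then set beside those at baseline and after MI, which used other hearts. At baseline 46 of 20141 genes were called (0.228%) and after MI 6 of 20612 (0.0291%). Snap91 was shared with baseline, which is 11.1% of the sham calls and 2.17% of the baseline calls, and 0 were shared with MI. All 46 baseline calls were tested after sham surgery, where 36 had the same direction at an unadjusted p under 0.05 and 35 did not overlap, yet only Snap91 passed the adjusted test. Over all genes tested, 5.7% were higher and 5.11% lower at that p, and 8.34% and 8.27% did not overlap. Of the 46, 13 were rRNA-related loci, and the rRNA share was higher in PKM2-/- than in PKM2fl/fl hearts at baseline too (43.84% against 19.88%). Gm48099, D130009I18Rik, Kcnip1, Kpna1 and Gnb1l, which followed the rRNA-related loci from heart to heart, were also among the 46 and not among the 13. Sspn, a protein of the dystrophin complex, was at 2.53 at baseline and 2.96 after sham surgery. Like those genes, Sspn was lowest in the second PKM2fl/fl and highest in the third PKM2-/- sham heart. Jarid2, on the list of rRNA-related loci, was at 4.77 at baseline and 3.89 after sham surgery. Kpna1 overlaps Gm15564, which was among the 13 rRNA-related loci called at baseline.

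Tests of the difference between genotype effects across all 16 libraries gave 0 of 20576 genes (0%) at a limma adjusted p under 0.05 for sham against baseline, and 0 (0%) for sham against MI. Unadjusted p under 0.05 was reached by 1294 and 1703 genes, and DESeq2 gave 24 and 60 genes at an adjusted p under 0.05. The smallest adjusted p for sham against baseline was 0.0703, for Ereg, the growth factor epiregulin, with a difference of 3.99. For sham against MI it was 0.134, for Rny1, a small RNA of the Ro particle, with a difference of 2.78. Gm25776 was next there, at -2.61 (limma adjusted p 0.134).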

How the data were processed

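RNA of 16 left ventricles, total and depleted of ribosomal RNA, had been sequenced as paired ends on an Illumina NextSeq, aligned with HISAT2 to mm10, counted per gene with featureCounts and normalized with DESeq2 by the authors (versions not given in the sources used here, nor whether counting used strand). The deposited table holds this normalized signal, read counts divided by a size factor per library. Its columns of the authors' own fold changes and p-values were not used. Each value was a whole multiple of the library's smallest step (100% of values, within 0.01 of a whole read), so reads were recovered for count tests.

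Samples were grouped by the labels. Genes with a mean of at least 10 over the 6 sham columns were tested by limma-trend (limma 3.58.1, R 4.3.3) on log2(value + 1), and called at a Benjamini-Hochberg adjusted p under 0.05 and a 2-fold change. Fold changes on this scale understate those of low genes. The SE is that of limma. DESeq2 1.42.0 and edgeR 4.0.16 (quasi-likelihood) ran on recovered reads as alternatives. Differences between genotype effects were limma contrasts over all 16 libraries. The rRNA share was tested by an exact permutation test. Scripts were tested on simulated data.

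Genes were named by rule: Pkm; in each direction up to 12 called genes outside the rRNA-related loci, filled by the smallest p among non-overlapping genes with a 2-fold change; the rRNA-related loci; for 52 gene lists the called members, the smallest p and the highest levels; and the leading interaction and baseline genes. Other genes named were chosen after their values were seen (among them the neighbors of Pkm, host genes and the small nucleolar RNA class). The members and lists were chosen with earlier results of these data known. Of the 55492 symbols, 70.6% matched RefSeq (GRCm38.p6), which gave positions and promoters, and 89.8% matched GENCODE M39 names, which gave classes, lengths and small nucleolar RNA sequences.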

Additional observations from a re-analysis of the deposited data

How the results depend on the processing

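The count of 9 genes (4 higher, 5 lower) was 242 (60 and 182) when libraries were scaled to total reads on genes, 128 by DESeq2 on the 6 sham libraries, 106 by DESeq2 on all 16 libraries, 272 by edgeR with no filter on low counts, 5 by limma-voom, 1 in a limma fit of all 16 libraries, 0 by the limma treat test against a 2-fold change and 4 (0 and 4) with the rRNA share as a covariate. Of the 4 genes with the covariate, 2 were among the 9. Leaving out 1 heart at a time gave 0 (without the second PKM2-/- heart) to 24 (without the third). Of the 9 genes, 0 to 8 were kept in these same 2 fits. For sham against baseline, the count of 0 was 6 with a pseudocount of 0.1, 1 with no filter, 4 with total read scaling and 24 by DESeq2, and 0 to 3 with a heart left out (3 without the second and 1 without the third PKM2fl/fl heart). For sham against MI, 0 became 54 with total read scaling and 60 by DESeq2, and was 0 to 6 with a heart left out (6 without the third PKM2fl/fl heart). Scaled to total reads outside the rRNA-related loci, the count of 9 was 6 (2 higher, 4 lower), and the median of all genes was -0.0199. The cause of these changes was not tested. Scaled to total reads, where the median of all genes was -0.324, Hk1 (-0.04441), Zfp36 (-0.002036) and Pecam1 (-0.01787) changed sign. With the covariate so did mt-Rnr1 (-0.143) and mt-Rnr2 (-0.3002), whose own reads are part of the rRNA share. The rRNA share kept its sign, from 7.865 to 17.64 points with a heart left out. Replicate numbers do not pair the hearts (correlations of same-numbered deviations -0.0375, -0.0696 and -0.00673), and a fit with the replicate number as a block called 48 genes (30 higher, 18 lower). With 3 hearts a group, differences of the size of most list members were within the spread between hearts.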
